A study of Mus musculus with 6 samples.

Results

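The genes described here make the machinery of mitochondrial fatty acid oxidation: 34 genes, taken by symbol from a table of 14148 genes, of which all 34 were listed. They were chosen by function, as the carnitine shuttle, the enzymes of the oxidation cycle, the electron transfer proteins, mitochondrial thioesterases and the transcriptional regulators of the pathway. The cells were microglia, brain-resident phagocytes, from hippocampi of male C57BL/6 mice aged 18 months with no transgene or treatment named in the labels. Cells were gated as live, CD11b+ and CD45lo, and were divided by BODIPY, a dye for neutral lipid, into a lipid droplet-low group (LD-low, 3 libraries) and a lipid droplet-high group (LD-high, 3 libraries). Each sample pooled the hippocampi of 3 mice and held about 10000 sorted cells, so the 2 groups differ in the dye gate alone as far as the labels say, and no young or unsorted group was part of the comparison.

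Fatty acids that are burned in mitochondria are carried across the inner membrane as carnitine esters and are then shortened a pair of carbons at a time by a repeated cycle of dehydrogenation, hydration, dehydrogenation and thiolysis. The electrons pass through the electron transfer flavoprotein to the respiratory chain, and the acetyl-CoA enters the tricarboxylic acid cycle. Fatty acids held in lipid droplets are a fuel store for this pathway, and the peroxisome proliferator-activated receptors with their coactivators are its best known transcriptional regulators.

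The libraries held 15895576 to 38489448 reads in genes, and values are normalized counts, that is, reads divided by 1 size factor per library. Microglial identity was checked on 8 markers: their summed level was 1357016 to 1595254 normalized counts in LD-low and 1310245 to 1524928 in LD-high libraries, and Csf1r, the receptor for colony-stimulating factor, was the most abundant of them. Traces of other cells differed between the groups. Of 8 neutrophil markers 5 were listed, and they summed to 1151, 1486 and 4257 in the LD-low libraries (replicates 1, 2 and 3) and to 0 in each LD-high library. The 8 choroid plexus epithelium markers summed to 951, 366 and 1795 in LD-low and to 5592, 1719 and 5488 in LD-high libraries. In a bulk sample, fewer cells of a type and less RNA per cell cannot be told apart.

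The levels of fatty acid oxidation genes were slightly higher in LD-high than in LD-low microglia for most of the enzymes, and 1 gene, Hadhb, passed the test. The 34 genes summed to 39677, 39403 and 36887 normalized counts in the LD-low libraries and to 43541, 42664 and 43152 in the LD-high libraries. The groups did not overlap in this sum, and the LD-high mean was 11.5% higher. As a share of each library's total, the sums were 1.47, 1.53 and 1.45 per mille in LD-low and 1.58, 1.61 and 1.63 in LD-high libraries, again without overlap. In normalized counts LD-low replicate 3 was the lowest of its group, while as a share of the total it lay close to LD-low replicate 1. In normalized counts 17 of the 32 tested genes had their lowest level in LD-low replicate 3, against 4 in LD-low replicate 1 and 8 in LD-low replicate 2. In LD-high replicates 1, 2 and 3, 13, 9 and 8 of the 32 genes had their highest level.

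**Figure D1:**
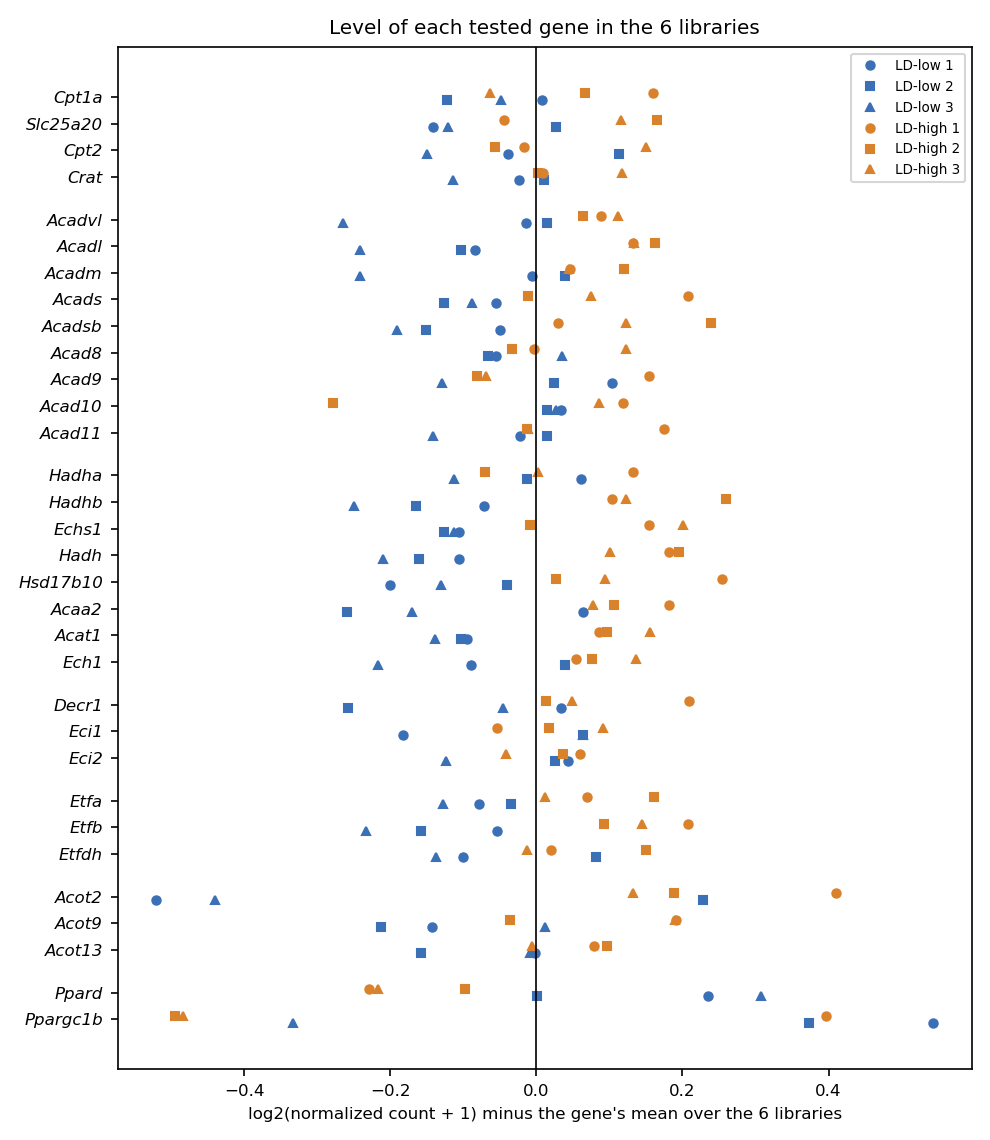
Level of each of the 32 tested genes in the 6 libraries, as log2(normalized count + 1) minus the gene's own mean over the libraries, with LD-low libraries in blue and LD-high libraries in orange. Most enzymes have their orange points to the right, LD-low replicate 3 (blue triangle) is the lowest point for 17 genes, and Ppard has its order the other way round.

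Of the 34 genes, 32 passed the filter of at least 10 normalized counts in at least 3 libraries, and Ppara and Ppargc1a did not. With limma, 1 of the 32 rose at a Benjamini-Hochberg adjusted p under 0.05, where 1.53% of all 11624 tested genes were called higher. With edgeR 1 of the 32 was called higher, against 1.44% of all genes, and with DESeq2 4 were, against 3.23%. None fell in limma, where 1.82% of all genes were called lower; 1 of the 32, Ppard, was lower at an unadjusted p under 0.05, and edgeR and DESeq2 also called 0 lower. Over all genes the split was 178 higher and 212 lower, and it was 118 and 233 when libraries were scaled to equal totals. A log2 change above 0 was found for 29 of the 32 genes, where 48.7% of all tested genes lay above 0, and their median log2 change was 0.16 against -0.01 over all tested genes. All 3 LD-high values lay above all 3 LD-low values for 14 of the 32 genes, where 12.7% of all genes showed this, and below them for 1, where 11.7% did. An unadjusted p under 0.05 with a higher LD-high level was found for 12 of the 32, against 9.68% of all genes. Without LD-low replicate 3 the median log2 change was 0.13, with 25 of 32 genes above 0.

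**Figure D2:**
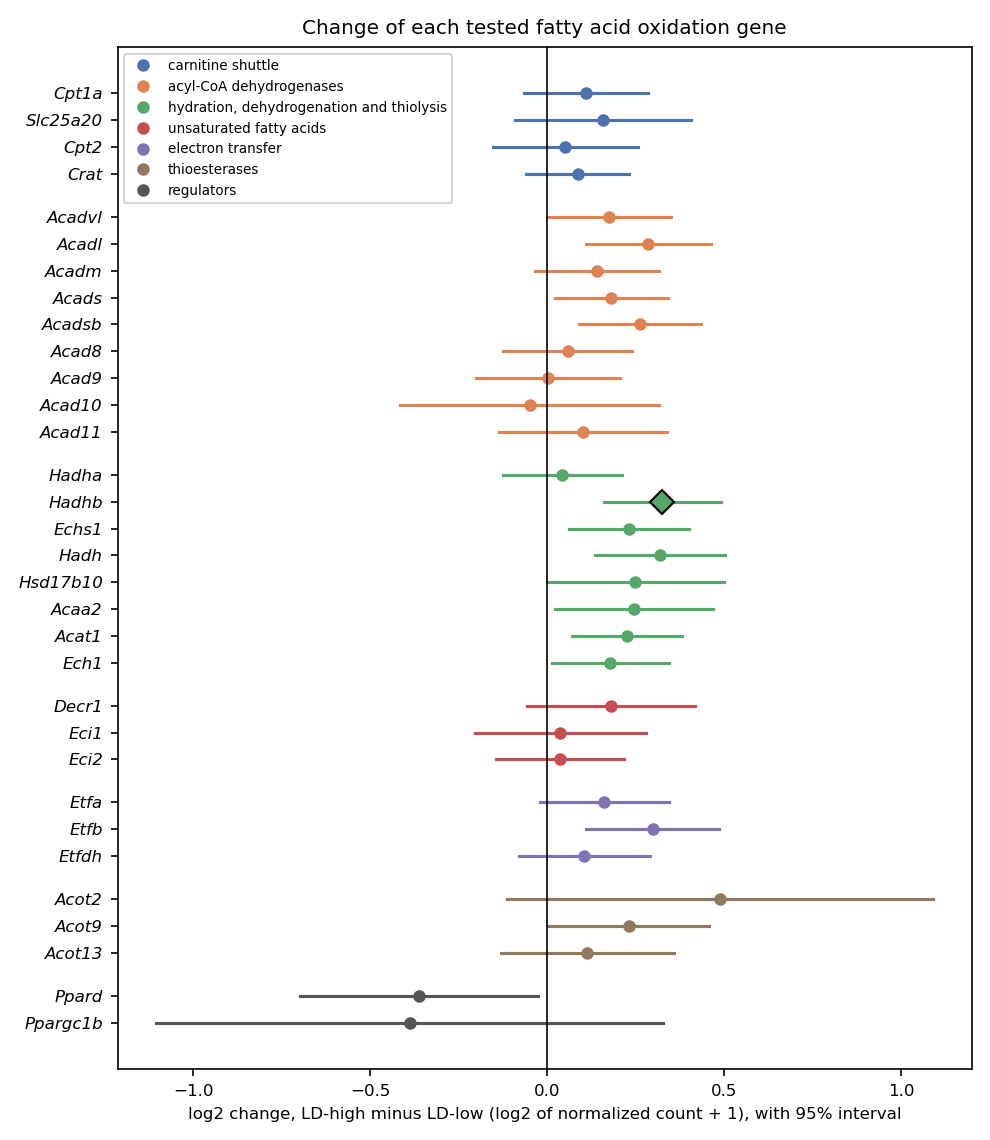
Log2 change (LD-high minus LD-low, on log2 of normalized count + 1) of each tested gene with its 95% interval from limma, coloured by role. Hadhb, the diamond, passed the test at 0.32; the other 31 genes (circles) did not, and the intervals of the carnitine shuttle genes all include 0.

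Genes of the carnitine shuttle, the entry step of the pathway, had log2 changes from 0.05 to 0.16, and none passed the test. The 4 genes summed to 7133, 7245 and 6755 normalized counts in the LD-low and to 7457, 7360 and 7687 in the LD-high libraries, without overlap. As a share of each library's total the sums did overlap, at 0.264, 0.281 and 0.266 per mille in LD-low and 0.271, 0.278 and 0.290 in LD-high libraries. Crat made up 56.1% of the sum. Cpt1a, which encodes the liver-type carnitine palmitoyltransferase of the outer membrane and is the rate-limiting step of the pathway (chromosome 19, 3323301 to 3385732, mm9 build), had 1697, 1550 and 1632 normalized counts in the LD-low and 1886, 1767 and 1615 in the LD-high libraries. The groups overlapped, since LD-high replicate 3 lay below LD-low replicates 1 and 3. The log2 change was 0.11 ± 0.08 (SE, adjusted p 0.495), with a 95% interval from -0.07 to 0.28. Slc25a20, the carnitine-acylcarnitine carrier of the inner membrane, had the smallest p of the 4 shuttle genes, with 403, 454 and 410 in LD-low and 432, 499 and 483 in LD-high libraries and a log2 change of 0.16 ± 0.12 (adjusted p 0.479). Cpt2, which releases the acyl group to CoA in the matrix, went from a mean of 1039 ± 95.5 to 1075 ± 83.6 normalized counts (SD, n = 3 each). Crat, which handles short-chain carnitine esters and had the highest count of all 34 genes, went from 3956 ± 174 to 4199 ± 191. Taken singly, the groups overlapped for all 4 genes, and with limma 0 of 4 passed, 0 had an unadjusted p under 0.05, and edgeR and DESeq2 called 0.

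The 9 genes of the acyl-CoA dehydrogenase family include those for the opening step of the cycle on substrates of different lengths. Others of the 9 serve amino acid breakdown or complex assembly. For 5 of the 9 every LD-high library lay above every LD-low library, where 12.7% of all tested genes showed this. These 5 include Acadsb, which acts on short branched chains from isoleucine. Acadl, the long-chain dehydrogenase (chromosome 1, 66877413 to 66909851), had 1153, 1138 and 1034 normalized counts in LD-low and 1340, 1367 and 1341 in LD-high libraries. Every LD-high value exceeded every LD-low value, and the LD-high libraries lay within 27.5 counts of each other. The log2 change was 0.29 ± 0.08 with an adjusted p of 0.0710 in limma, and DESeq2 gave an adjusted p of 0.0402. Acadvl, the very long-chain enzyme of the inner membrane, had 2404, 2452 and 2020 in LD-low and 2581, 2535 and 2621 in LD-high libraries (log2 change 0.18 ± 0.08, adjusted p 0.251). Of the annotated exonic bases of Acadvl, 42.9% are shared with Dvl2 on the opposite strand, and in libraries that do not mark strand reads there cannot be assigned; Dvl2 itself had a log2 change of 0.03 ± 0.12.

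Acadm, the medium-chain dehydrogenase, had 2330, 2406 and 1979 in LD-low and 2417, 2543 and 2414 in LD-high libraries. Its groups were separated by only 8.78 counts, between LD-low replicate 2 and LD-high replicate 3, and the log2 change was 0.14 ± 0.08 (adjusted p 0.366). Acads, the short-chain enzyme, had 2512, 2391 and 2457 in LD-low and 3015, 2590 and 2752 in LD-high libraries (0.18 ± 0.08, adjusted p 0.197). Acadsb, which acts on short branched chains from isoleucine, had 1704, 1588 and 1545 in LD-low and 1801, 2082 and 1920 in LD-high libraries (0.26 ± 0.08, adjusted p 0.0905). For these genes too the groups did not overlap. The groups overlapped for the other 4: Acad8, the isobutyryl-CoA enzyme of valine breakdown, Acad9, which serves mainly in the assembly of a respiratory complex, and Acad10 and Acad11. Their log2 changes ran from -0.05 for Acad10 to 0.10 for Acad11, with 0.06 for Acad8 and 0.00 for Acad9. With limma 0 of the 9 passed, and 4 were higher at an unadjusted p under 0.05, against 9.68% of all genes. Of the 9, edgeR called 0 and DESeq2 called Acadl. DESeq2 called 3.23% of all genes higher.

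Genes listed under the later steps of the cycle, hydration, dehydrogenation and thiolysis, showed the most regular difference, and Hadhb rose. For 7 of 8 every LD-high library lay above every LD-low library, where 12.7% of all tested genes showed this. The 8 include Ech1, an isomerase for unsaturated fatty acids. Hadhb encodes the beta subunit of the mitochondrial trifunctional protein, which holds the long-chain thiolase, and Hadha the alpha subunit, which holds the long-chain hydratase and dehydrogenase. Hadhb (chromosome 5, 30481788 to 30511133) had 2255, 2115 and 1993 normalized counts in LD-low and 2549, 2840 and 2583 in LD-high libraries. The lowest LD-high value was 294 counts above the highest LD-low value, a gap about as wide as the range within each group (262 and 291). The mean went from 2121 ± 131 to 2657 ± 159 (SD, n = 3 each), 25.3% higher, and the log2 change was 0.32 ± 0.08 with an adjusted p of 0.0345 in limma. The call was lost without LD-low replicate 2, LD-low replicate 3, LD-high replicate 2 or LD-high replicate 3 (adjusted p 0.115, 0.148, 0.109 and 0.0779), and with equal totals, quantile normalization or no mean-variance trend (0.0594, 0.0695 and 0.200), while the log2 change stayed between 0.28 and 0.37 in all these fits and in those that kept the call.

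Hadha (chromosome 5, 30444841 to 30481702) had a smaller log2 change than its partner and did not pass the test. It had 2459, 2336 and 2179 normalized counts in LD-low and 2584, 2245 and 2359 in LD-high libraries, so that the groups overlapped. Its log2 change was 0.04 ± 0.08, and its 95% interval from -0.13 to 0.21 overlapped that of Hadhb, from 0.16 to 0.49. The ratio of Hadha to Hadhb reads was 1.09, 1.10 and 1.09 in the LD-low libraries, and 1.01, 0.791 and 0.913 in the LD-high libraries. All LD-high ratios were below all LD-low ratios, by a mean of -0.28 on the log2 scale. The 2-sided exact permutation p was 0.1, the smallest that 3 against 3 libraries allow, so this test could not have gone under 0.05. The LD-low ratios were nearly constant, and LD-high replicate 2, where Hadhb was highest and Hadha lowest of its group, gave the lowest ratio. This ratio was examined with the values of both genes known, so it only describes them and does not show that the 2 genes changed differently.

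The subunit genes are neighbours that start back to back. The stretch between their annotated starts is shown because 2 genes share it, of which Hadhb passed the test and Hadha did not. It lies at chr5:30481703-30481787 (mm9, GENCODE vM1 starts), is 85 bases long with 69.4% G and C, and is written on the strand of Hadhb with its 9 CG pairs in capitals.
Hadha-Hadhb: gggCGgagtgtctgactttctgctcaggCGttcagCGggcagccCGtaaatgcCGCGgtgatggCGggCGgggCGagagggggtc
Such arrangements were found for 8 of the 32 tested genes (25.0%), counted as a protein-coding neighbour that starts on the other strand within 1000 bases, against 11.8% of the tested genes with an annotation. Apart from Hadha and Hadhb, the neighbours of these genes were no members of the pathway and did not pass the test, with log2 changes from -0.20 to 0.22. Acadsb, for example, starts 79 bases from Ikzf5, a zinc finger gene with a log2 change of 0.13 ± 0.12.

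The other genes listed under hydration, dehydrogenation and thiolysis lay between Hadha and Hadhb in the size of their difference. Hadh, the dehydrogenase for short and medium chains (chromosome 3, 130936337 to 130975019), had 880, 847 and 818 normalized counts in LD-low and 1074, 1084 and 1015 in LD-high libraries. The lowest LD-high library was 135 counts above the highest LD-low library, more than the range within either group (61.6 and 68.9), and the log2 change was 0.32 ± 0.09 with an adjusted p of 0.0581 in limma and 0.0256 in DESeq2. Echs1, the short-chain enoyl-CoA hydratase, had 1551, 1530 and 1544 in LD-low and 1858, 1660 and 1920 in LD-high libraries (0.23 ± 0.08, adjusted p 0.125). Its LD-low values were almost identical, and LD-high replicate 2 was the one closest to them.

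Acat1, the thiolase for acetoacetyl-CoA, had 1645, 1635 and 1596 in LD-low and 1864, 1878 and 1957 in LD-high libraries (0.22 ± 0.07, adjusted p 0.105). Acaa2, the medium-chain thiolase, had 777, 621 and 660 in LD-low and 844, 801 and 785 in LD-high libraries (0.24 ± 0.10, adjusted p 0.211), so that LD-low replicate 1 came within 7.26 counts of the LD-high group. Hsd17b10, a dehydrogenase for branched chains and steroids, had 380, 424 and 398 in LD-low and 521, 445 and 466 in LD-high libraries (0.25 ± 0.12, adjusted p 0.253). Ech1, a dienoyl-CoA isomerase, had 2478, 2711 and 2270 in LD-low and 2738, 2780 and 2900 in LD-high libraries (0.18 ± 0.08, adjusted p 0.220). In these genes the lowest LD-high value was only just above the highest LD-low value for Hsd17b10, Acaa2 and Ech1, and clearly above it for Acat1.

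**Figure D3:**
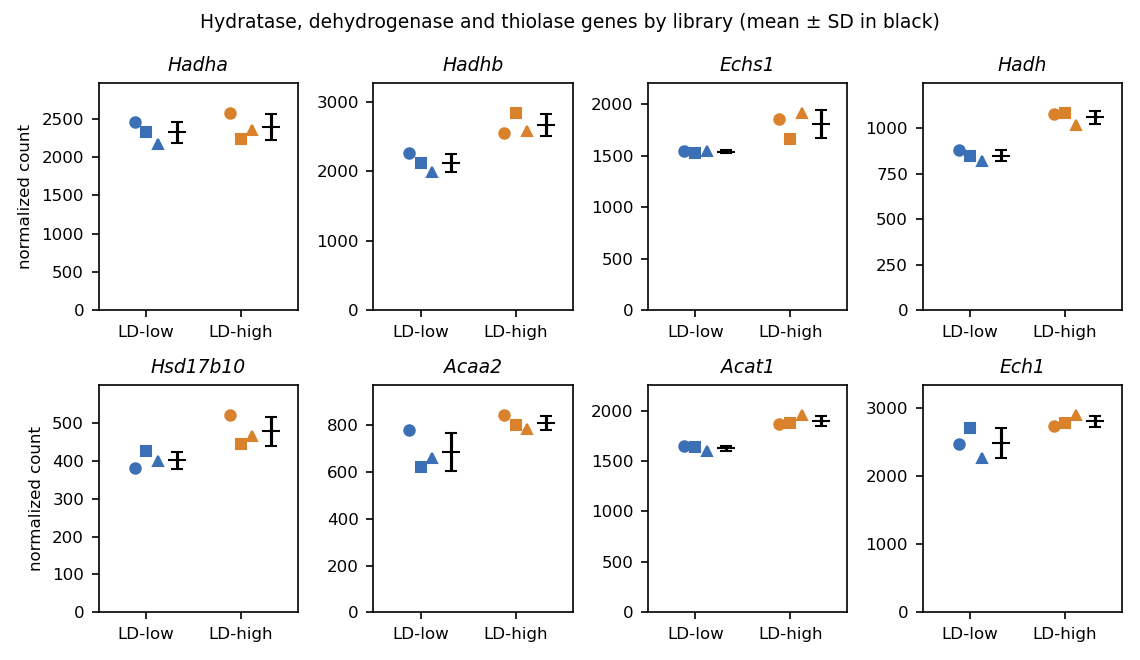
Normalized counts in each library of the 8 genes listed under hydration, dehydrogenation and thiolysis, with the isomerase Ech1 among them. Circle, square and triangle mark replicates 1, 2 and 3, and black marks the mean ± SD of 3 libraries. In 7 panels all orange points lie above all blue points, while Hadha overlaps, with 2179 to 2459 in LD-low and 2245 to 2584 in LD-high libraries.

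Of the auxiliary enzymes for unsaturated fatty acids, Decr1, Eci1 and Eci2 overlapped between the groups, with log2 changes from 0.04 to 0.18. Ech1, described above, did not overlap. Decr1, the dienoyl-CoA reductase, had 620, 506 and 586 normalized counts in LD-low and 699, 610 and 626 in LD-high libraries, with overlap between LD-low replicate 1 and LD-high replicate 2 (log2 change 0.18 ± 0.11, adjusted p 0.389). The enoyl-CoA isomerases Eci1 and Eci2 had log2 changes of 0.04 each, with 95% intervals from -0.20 to 0.28 and from -0.14 to 0.22. With limma 0 of the 3 passed, 0 had an unadjusted p under 0.05, and edgeR and DESeq2 called 0.

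Of the electron transfer genes, Etfb stood highest. It encodes the beta subunit of the electron transfer flavoprotein (chromosome 7, 50699478 to 50713170) and had 973, 905 and 859 normalized counts in LD-low and 1167, 1077 and 1117 in LD-high libraries. The groups were apart by 104 counts, and the log2 change was 0.30 ± 0.09 with an adjusted p of 0.0779 in limma and 0.0490 in DESeq2. Etfa, the alpha subunit, had 980, 1010 and 946 in LD-low and 1085, 1157 and 1044 in LD-high libraries (0.16 ± 0.09, adjusted p 0.315), without overlap. Etfdh, the dehydrogenase that hands the electrons to ubiquinone, overlapped (0.10 ± 0.09, adjusted p 0.534). The thioesterases, which free fatty acids from CoA, all overlapped. Acot9 had 629, 600 and 700 in LD-low and 793, 678 and 793 in LD-high libraries (0.23 ± 0.11, adjusted p 0.245), and Acot13 a log2 change of 0.11 ± 0.11. Acot2 had only 42.1, 71.5 and 44.6 in LD-low and 81.2, 69.4 and 66.8 in LD-high libraries, and its log2 change of 0.49 ± 0.28 had an interval from -0.11 to 1.09. Acot2 and Acot9 have close paralogs, so their counts are uncertain where reads fit more than 1 copy. With limma 0 of these 6 genes passed. Etfb and Acot9 were higher at an unadjusted p under 0.05, where 9.68% of all genes were. Of the 6, edgeR called 0 and DESeq2 called Etfb. DESeq2 called 3.23% of all genes higher.

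The regulators did not share the direction of the enzymes, and the receptor best known for this pathway was barely detected. Ppara, the fatty acid-sensing receptor that drives oxidation genes in liver, had 0, 4.33 and 0 normalized counts in LD-low and 2.23, 0 and 1.67 in LD-high libraries, at most 4 reads in a library. Ppargc1a, a coactivator of mitochondrial genes, was at 0 in 5 libraries and at 8.94 in LD-high replicate 1. A library with 0 reads could have held up to 3, which is 2.11 to 5.01 normalized counts depending on depth, so neither gene allows a comparison. Ppard, the receptor of the same family that was expressed (chromosome 17, 28369699 to 28438414), had 236, 200 and 248 in LD-low and 171, 187 and 172 in LD-high libraries. All LD-high values were below all LD-low values, and the log2 change was -0.36 ± 0.16 with an adjusted p of 0.216 and a 95% interval from -0.70 to -0.03. Ppargc1b, the other coactivator, had 79.3, 70.4 and 42.7 in LD-low and 71.5, 38.1 and 38.4 in LD-high libraries, a wide overlap (-0.39 ± 0.34, adjusted p 0.553).

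Set per kilobase of annotated exonic length, mean levels over the 6 libraries differed between the genes by far more than any of them differed between the groups. Ech1 and Acads were highest at 1159 and 1154 normalized counts per kb, followed by Acadvl (907), Etfb (892), Acadm (801) and Crat (757). Cpt1a had 393, Cpt2 446, Slc25a20 251, Hadha 442 and Hadhb 362. Acad9 (140), Acad11 (125), Ppard (43.7), Acot2 (28.5), Acad10 (28.4) and Ppargc1b (14.2) were low, and Ppara and Ppargc1a lay at 0.358 and 0.224. These lengths count every annotated exon of a gene, which lowers the value of genes with long or many annotated exons. Across the 32 tested genes, Spearman's rho of the log2 change was -0.29 with exonic length and -0.24 with GC content, as a description of genes that share libraries. The median length was 3345 bases, against 3737 over tested genes with an annotation.

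The stretches upstream of the genes were searched for AGGTCA, the hexamer bound by nuclear receptors, for that hexamer repeated with 1 base between, the form bound by peroxisome proliferator-activated receptors, and for TCAAGGTCA, the longer form bound by estrogen-related receptors, which contains the hexamer. On both strands, the hexamer was present in the 250 bases before the start of 4 of the 32 tested genes (12.5%), against 10.6% of 10714 tested genes. The repeat and the longer form were in none of the 32, and in 0.0467% and 0.327% of all. The share of the hexamer is thus near that of all genes. For the repeat and the longer form only exact letters were searched. With shares this low over all genes, finding none among 32 was likely whichever genes were taken. Nothing follows from it about binding of these receptors. The sites of Cpt1a, Acadvl and Echs1 are shown with their surroundings, since these are the entry enzyme and cycle enzymes described above; the capitals mark the hexamer, which reads as its reverse complement in Cpt1a. They lie at chr19:3323177-3323242 (plus strand), chr11:69828982-69829047 (minus strand) and chr7:147302376-147302433 (minus strand), in mm9, outside annotated exons. The site near Hadha lies in an exon of Hadhb.
Cpt1a: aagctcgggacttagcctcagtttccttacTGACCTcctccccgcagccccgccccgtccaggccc
Acadvl: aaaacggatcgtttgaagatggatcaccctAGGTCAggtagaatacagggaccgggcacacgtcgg
Echs1: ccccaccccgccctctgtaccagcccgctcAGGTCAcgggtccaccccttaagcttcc

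Genes that receive or feed the products of fatty acid oxidation were read in the same fit. Of the tricarboxylic acid cycle genes, 15 of 17 lay above 0 with a median log2 change of 0.19, and 1 rose in limma. All LD-high values lay above all LD-low values for 12, where 12.7% of all tested genes showed this. At an unadjusted p under 0.05, 11 of the 17 were higher, against 9.68% of all genes, and 0 lower. The tools edgeR and DESeq2 called 0 and 4, where DESeq2 called 3.23% of all genes higher. The gene called in limma, Idh3a, a subunit of isocitrate dehydrogenase, had 1141, 1377 and 1174 normalized counts in LD-low and 1532, 1559 and 1553 in LD-high libraries (0.34 ± 0.09, adjusted p 0.0492 in limma). Its call was lost in edgeR (adjusted p 0.0559), held in DESeq2 (0.0180), and was lost in all 6 fits that left out 1 library, with the highest adjusted p at 0.178. Of 4 tested genes of ketone body and acetyl-CoA handling, Oxct1, which activates ketone bodies for use as fuel, rose from 6912, 6566 and 6292 to 8265, 8068 and 7573 (0.27 ± 0.07, adjusted p 0.0380 in limma) and kept its call in 1 of 6 leave-one-out fits, the highest adjusted p there being 0.150. The median of the 4 was 0.17.

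Branched-chain and propionyl-CoA breakdown, which also feeds the mitochondrial pool, had 12 of 15 genes above 0 and a median of 0.11. With limma 0 of the 15 passed. At an unadjusted p under 0.05, 3 of the 15 were higher, against 9.68% of all genes, and 0 lower. The tools edgeR and DESeq2 called 0 and 1, where DESeq2 called 3.23% of all genes higher. Hibadh, of valine breakdown, had the smallest p in limma (0.26 ± 0.08, adjusted p 0.0691). The list for carnitine supply and malonyl-CoA control, which sets how much fat enters mitochondria, had a median of 0.06 over 8 tested genes. It had 0 calls in limma, edgeR and DESeq2. At an unadjusted p under 0.05, 1 of the 8 was higher, against 9.68% of all genes. The gene was Prkaa1, a catalytic subunit of the AMP-activated kinase, with 1296, 1345 and 1141 in LD-low and 1574, 1348 and 1650 in LD-high libraries (0.27 ± 0.10, adjusted p 0.132). The partners and classic targets of the peroxisome proliferator-activated receptors had a median of 0.04 over 12 tested genes, with 0 calls in limma, edgeR and DESeq2 and 0 at an unadjusted p under 0.05; the smallest p was that of Rxrg, a retinoid X receptor (0.36 ± 0.18, adjusted p 0.297). The targets Pdk4 and Angptl4 did not pass the filter and were not tested. Pdk4, a kinase that holds back pyruvate oxidation, had 0 in each LD-low library and 1.49, 2.24 and 1.67 in LD-high libraries. Angptl4, a secreted inhibitor of lipoprotein lipase, had 4.21, 2.17 and 0 in LD-low and 7.45, 8.96 and 6.68 in LD-high libraries. At no more than 2 reads in a library for Pdk4 and 10 for Angptl4, neither gene allows a comparison of the groups.

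**Figure D4:**
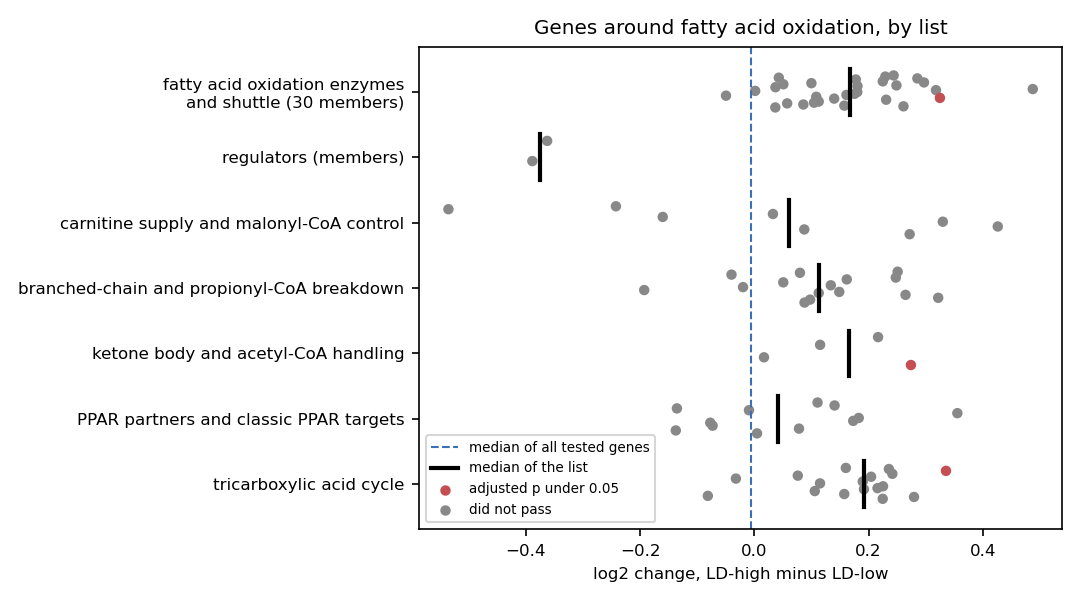
Log2 change of every tested gene by list, with the median of each list (black bar), the median of all tested genes (dashed line at -0.01) and genes past the test in red. The enzymes and shuttle genes of fatty acid oxidation (median 0.17) and the tricarboxylic acid cycle genes (median 0.19) lie mostly to the right of the line, while the tested regulators Ppard and Ppargc1b lie to the left.

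Transcripts of several other cell types also differed between the groups. LD-low replicate 3 held the most neutrophil markers (4257) and also the lowest sum of the fatty acid oxidation genes (36887). All 5 listed neutrophil markers fell in limma, edgeR and DESeq2. Of the 5 tested choroid plexus markers 3, Ttr, Kl and Enpp2, rose in limma, where all 5 were above 0, and edgeR called 3 and DESeq2 2. The choroid plexus sums overlapped between the groups, at 1795 in LD-low replicate 3 and 1719 in LD-high replicate 2. The oligodendrocyte markers summed to 4641 to 4894 in LD-low and 5452 to 6013 in LD-high libraries, mainly through Cnp, with 4 of 5 tested markers above 0, and Cldn11 was not listed. The astrocyte list summed to 6500 to 7854 and 7999 to 8878, of which Slc1a3 made up 98.9%, with 2 of 3 tested markers above 0. Gfap and Aqp4 did not pass the filter and were at most 19.5 and 7.58 in any library. They went the other way from the sum, from means of 14.4 and 3.30 in LD-low to 5.27 and 0 in LD-high libraries. For both, every LD-high value lay below every LD-low value. Border-associated macrophage markers summed to 254 to 557 in LD-low and 167 to 416 in LD-high libraries, with 7 of 7 tested markers below 0 and Mrc1 the most abundant. Endothelial markers summed to 1089 to 1501 and 1301 to 1670, mainly through Pecam1, with 2 of 3 tested markers above 0, and Cldn5 was not listed. The one below 0 was Flt1, a receptor for vascular endothelial growth factor, with 19.6, 21.7 and 24.2 in LD-low and 2.98, 5.60 and 0 in LD-high libraries (adjusted p 0.0563 in limma, 0.0395 in edgeR and 0.0165 in DESeq2). Neuronal markers summed to at most 36.5, of which Rbfox3 was the most abundant. The part of these transcripts in the differences of the fatty acid oxidation genes was not tested.

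**Figure D5:**
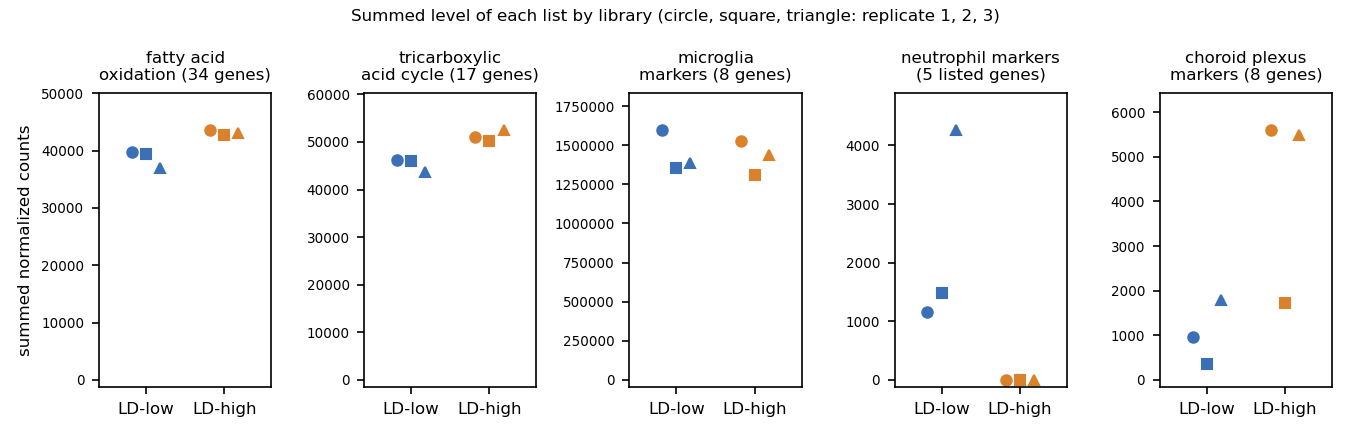
Summed normalized counts by library for the 34 fatty acid oxidation genes, the tricarboxylic acid cycle genes and 3 marker lists, each on its own axis from 0. The fatty acid oxidation sums do not overlap (36887 to 39677 against 42664 to 43541), microglia markers overlap, neutrophil markers are at 0 in all LD-high libraries, and choroid plexus markers overlap between LD-low replicate 3 and LD-high replicate 2.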

How the data were processed

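The deposited table gives, per gene and library, a normalized signal, which the authors made from read counts. The submitters' processing notes name FastQC 0.11.4, STAR 2.5.1b with its gene counts, mm9 and DESeq2. Which annotation and strand setting they used is not given in the sources used here. Every value was a whole number of reads times 1 step per library (100% within 0.01 reads), so reads were recovered. A date stands in place of the symbol in 22 rows, which were kept in the fit and never named.

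Genes with at least 10 normalized counts in at least 3 libraries (11624) were tested with limma 3.58.1 (R 4.3.3) on log2(normalized count + 1) with a mean-variance trend, 2-sided, adjusted by Benjamini-Hochberg over all of them; this scale understates changes of low genes. Coordinates, exonic lengths and sequences are from GENCODE vM1 on mm9, matched by symbol for 12853 genes. Alternatives include edgeR 4.0.16 and DESeq2 1.42.0 on the recovered reads.

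The 34 genes and all lists were chosen with earlier results of these data known. Named genes are all members and, of other lists, genes past the threshold, the smallest p and, of markers, the most abundant; Hibadh, Prkaa1 and Rxrg are smallest-p genes. Chosen after their values were seen were Dvl2, Ikzf5, Pdk4, Angptl4, Cldn11, Gfap, Aqp4, Cldn5 and Flt1. Nothing in the labels says whether pools hold different mice, so p-values may measure technical spread only. Intervals and floors cover counting error or library spread only, since reads carry no molecular identifiers.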

Additional observations from a re-analysis of the deposited data

How the results depend on the processing

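The median log2 change of the tested genes stayed between 0.12 and 0.17 under all 19 alternatives, and 26 of 32 genes kept their sign in all of them; the 6 others, whose log2 changes were at most 0.05 in size, were Cpt2, Acad9, Acad10, Hadha, Eci1 and Eci2. The count of members called higher was 1, and became 0 with equal totals, quantile normalization or no trend, 4 with DESeq2, and 0 to 1 without 1 library; none was called lower in any of these fits. Over all genes, 178 were called higher and 212 lower; higher calls became 118 with equal totals, 108 with quantile normalization, 1 without the trend (with 14 lower) and 376 with DESeq2 (353 lower), and ran from 17 to 212 without 1 library (35 to 209 lower). All calls together, 390, became 82, 52, 231, 201 and 90 without LD-low replicate 2, LD-low replicate 3, LD-high replicate 1, LD-high replicate 2 and LD-high replicate 3. The cause was not tested. The titles number both groups alike, but nothing says that a number marks a shared pool, and the deviations of same-numbered libraries from their group means correlated at 0.161, 0.132 and 0.0641. Every library correlated best with its own number, which is a hint from the data and not from the design. With the replicate number as a block, 560 genes were called higher and 530 lower. The higher calls were 4.82% of all tested genes, against 1.53% in the main fit. Of the 32 tested members, 5 were called higher with the block (Hadhb, Hadh, Acadl, Acadsb and Etfb). Ppara and Ppargc1a had 0 to 4 and 0 to 12 reads per library, too few to compare.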
